A study of Mus musculus with 6 samples.

Results

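The actin, SRF and YAP gene module covered 39 genes of the actin cytoskeleton, of transcription by serum response factor (SRF) and of the Hippo pathway with its effectors YAP and TAZ, chosen by gene name. All 39 were found among the 53390 genes to which transcript values were summed. SRF is a transcription factor that binds the CArG box, and its co-activators of the MRTF family are held in the cytoplasm by monomeric actin and move to the nucleus when actin is taken up into filaments. Genes of actins, actin-binding proteins and contractile proteins are classical SRF targets, and serum is the stimulus with which this response was first described. YAP and TAZ have no DNA-binding domain of their own: they act on DNA through TEAD factors, and the LATS kinases of the Hippo pathway keep them out of the nucleus.

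RNA sequencing of TKO mouse embryonic stem cells addressed how gene expression differs between culture in serum and culture in 2i when DNA methyltransferases are missing. The TKO line carries inactivated Dnmt1, Dnmt3a and Dnmt3b and was made from male J1 cells, grown without feeder cells on gelatin. TKO-serum cells were kept in DMEM with 15% FCS and LIF at 500 U/ml, and TKO-2i cells spent 14 days in N2B27 medium with no FCS, LIF at 1000 U/ml, 1 µM of the MEK inhibitor PD0325901 and 3 µM of the GSK3 inhibitor CHIR99021. Serum, basal medium, LIF dose and both inhibitors therefore differed together and their parts in any difference cannot be told apart. Each condition had 3 poly(A)-selected libraries, which the labels call biological replicates, of a single line; wild-type cells were not analysed here. All p-values measure only the spread among these 6 libraries, and an exact two-sided permutation test of 3 against 3 libraries cannot go below 0.1. The total of estimated counts was 46228700, 44180642 and 43896549 in TKO-2i replicates 1, 2 and 3, and 38274042, 51932739 and 44827609 in TKO-serum replicates 1, 2 and 3. The inactivated genes still gave transcripts, with Dnmt1 at 31.0 ± 3.12 TPM in TKO-2i and 27.4 ± 1.48 TPM in TKO-serum, Dnmt3a at 4.68 ± 0.459 TPM in TKO-2i and 22.3 ± 0.942 TPM in TKO-serum and Dnmt3b at 8.24 ± 1.43 TPM in TKO-2i and 20.1 ± 1.16 TPM in TKO-serum (SD, n = 3). Which exons were deleted is not given in the sources used here, so these summed levels do not check the genotype.

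Of the 39 members, 37 passed the filter on low counts, and 33 of these differed between the conditions at an adjusted p under 0.05 (edgeR, quasi-likelihood test, p-values adjusted after Benjamini and Hochberg over 18177 genes). The members called made up 89.2% of those tested, against 62.5% of all genes tested. In TKO-2i, 24 members (64.9%) were lower and 9 (24.3%) were higher, against 30.6% lower and 31.9% higher among all genes. Limma on log2(TPM + 1) called 26 members lower and 5 higher. Over all genes it also made more lower calls (5839, against 5557) and fewer higher calls (4209, against 5804). A difference of at least 2-fold was found for 10 members lower in TKO-2i (27.0%, against 15.6% of all genes) and 2 members higher in TKO-2i (5.41%, against 7.72%). With at least 10 counts in every library, 30 members were left in the fit and 3 were lower by this amount. The members removed by this filter had few counts in TKO-2i, so the 27.0% depends on the filter. No share of all genes is given under it. The 3 values of the conditions did not overlap, on the counts-per-million (CPM) scale, for 35 of the 37 (94.6%, against 67.5%). Fold changes are given as log2 of TKO-2i over TKO-serum with the standard error of the fit. Their median was -0.34 over the tested members, also with the 1 tested member at 0 counts in TKO-2i placed at its bound, and 0.01 over all genes. The median of the absolute log2 fold changes was 0.58 for the members and 0.44 for all genes. The name serum-responsive thus fitted most members in the sense of a higher level in serum medium, while 9 members (5 in limma on log2(TPM + 1)) went the other way and serum was never varied alone. In whole-culture RNA, fewer cells of a type and less RNA per cell cannot be told apart.

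On the transcripts-per-million (TPM) scale, which allows levels of different genes to be compared, the members summed to 4194, 4370.2 and 4143 TPM in TKO-2i replicates 1 to 3 and to 4972, 5339 and 5160.4 TPM in TKO-serum replicates 1 to 3. The lowest TKO-serum library lay above the highest TKO-2i library. The cytoplasmic actin genes Actb and Actg1 supplied 70.2% to 71.7% of the summed member TPM in TKO-2i libraries and 71.9% to 72.0% in TKO-serum libraries, so the sum mostly follows these genes. The plot of fold changes by role shows small differences for most members and large ones for a few.

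**Figure D1:**
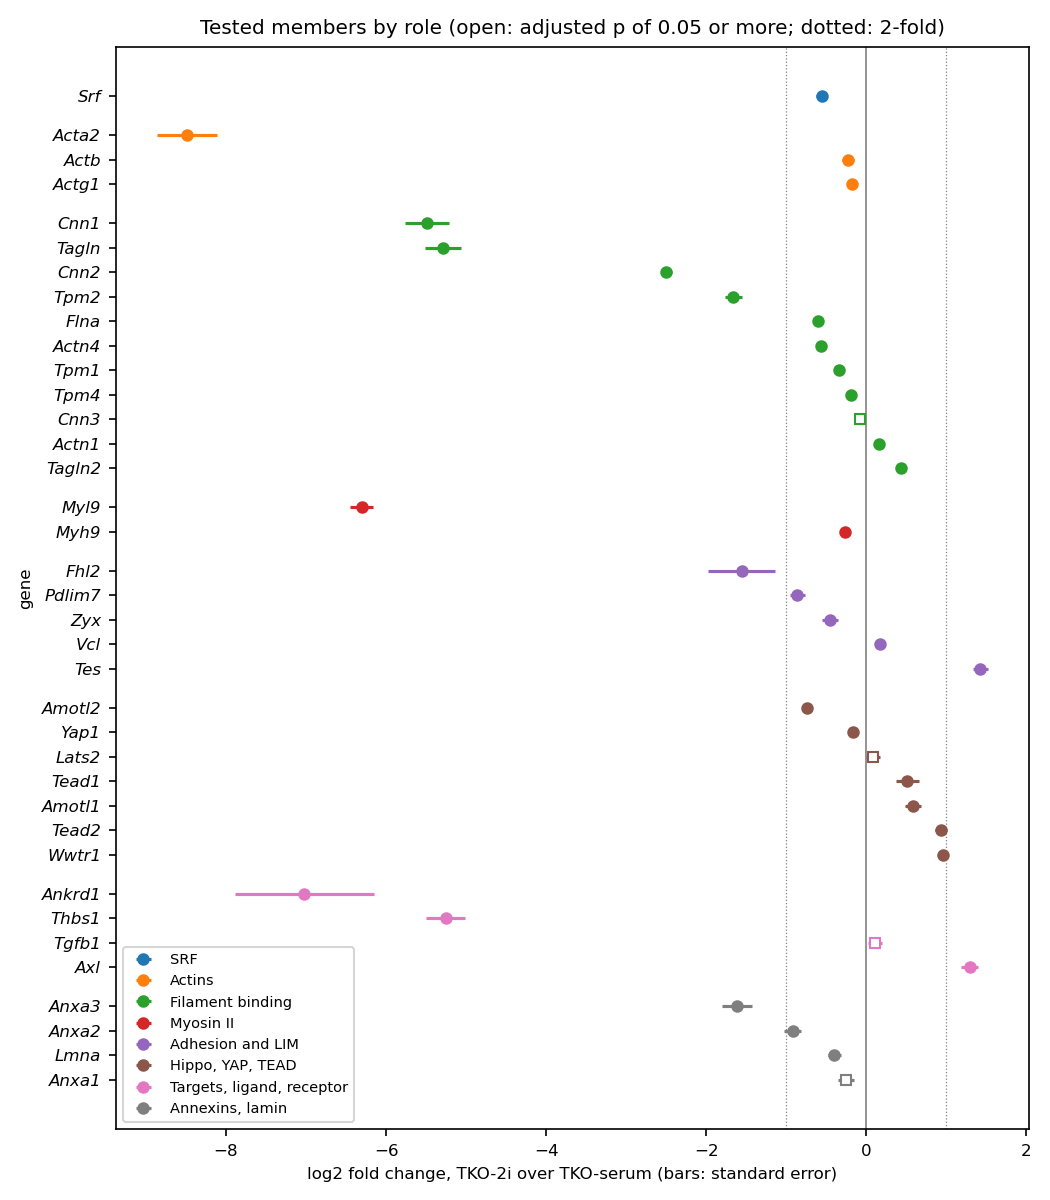
Log2 fold change of TKO-2i over TKO-serum (horizontal axis) for each of the 37 tested members (vertical axis, grouped by role), with bars for the standard error of the fit to 3 libraries a condition; open symbols mark an adjusted p of 0.05 or more and dotted lines mark 2-fold. The values run from -8.49 for Acta2, whose size rests on 1 count in TKO-2i, to 1.42 for Tes, and 24 of the members that passed the test lie left of 0 and 9 right of it.

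Srf, which encodes the transcription factor itself (ENSMUSG00000015605, chr17:46548329-46556175 of GRCm38, minus strand), was measured at 33.7, 29.1 and 33.4 CPM in TKO-2i and 49.4, 45.5 and 46.7 CPM in TKO-serum in replicates 1 to 3. All TKO-serum values were above all TKO-2i values. Its log2 fold change was -0.56 ± 0.07 (adjusted p = 0.00015), and its level was 19.7 ± 1.27 TPM in TKO-2i and 31.0 ± 1.92 TPM in TKO-serum (SD, n = 3).

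Every tested actin gene was lower in TKO-2i, against 30.6% of all tested genes. Differences were small for the cytoplasmic forms and very large for the smooth muscle form. Acta2, the gene of smooth muscle alpha-actin (ENSMUSG00000035783, chromosome 19), had 0, 1 and 0 counts in TKO-2i and 159, 188 and 163 counts in TKO-serum. Its transcripts were thus close to absent in TKO-2i and present at a low level in every TKO-serum library, at 2.86 ± 0.133 TPM (SD, n = 3). The ratio of TKO-serum to TKO-2i was 487 with an exact 95% interval, for counting error only, of 87.0 to 19300 on the normalized counts (fitted log2 fold change -8.49, which depends on the prior count, adjusted p = 4e-07). Actg2, the enteric smooth muscle gamma-actin gene, had 0, 0 and 1 counts in TKO-2i and 8, 7 and 9 counts in TKO-serum, did not pass the filter and was not tested. The ratio of TKO-serum to TKO-2i for Actg2 was 22.9 on the normalized counts (exact 95% interval 3.73 to 942, counting error only).

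The cytoplasmic actins were the most abundant members. Actb, encoding beta-actin, was at 1974, 1656 and 1986 CPM in TKO-2i and 2239, 2150.3 and 2189 CPM in TKO-serum, and the 3 TKO-serum values were the higher ones, with TKO-2i replicate 2 lowest. Its log2 fold change was -0.23 ± 0.07 (adjusted p = 0.021). This call did not hold without TKO-serum replicate 1 (adjusted p = 0.07), replicate 2 (0.054) or replicate 3 (0.065), and without TKO-2i replicate 2 the log2 fold change was -0.14 (adjusted p = 0.0031), in a range of adjusted p from 0.00037 to 0.07 over 15 alternatives. Actg1, encoding gamma-actin, was at 2508, 2343 and 2487 CPM in TKO-2i and 2814, 2739.7 and 2755 CPM in TKO-serum and did not overlap between conditions either. The log2 fold change of Actg1 was -0.18 ± 0.04 (adjusted p = 0.0061). It lies on chromosome 11, where the median log2 fold change of all tested genes was 0.26. In TPM, Actg1 stood at 1669.9 ± 74.0 TPM in TKO-2i and 2007 ± 78.3 TPM in TKO-serum, and Actb at 1342 ± 22.6 TPM in TKO-2i and 1702 ± 53.4 TPM in TKO-serum (SD, n = 3). The coding sequences of Actb and Actg1 were 88.6% identical, with up to 62 bases in a row shared, and those of Acta2 and Actb were 82.8% identical, so the division of reads between actin genes by the authors' quantification carries an uncertainty that the counts do not show.

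Of the 11 genes of actin-filament-binding proteins, 8 were lower in TKO-2i, 2 were higher and 1 did not pass the test (median log2 fold change -0.56). Over all tested genes, 30.6% were lower and 31.9% higher. The largest differences were in genes known as smooth muscle differentiation markers. Tagln, encoding transgelin (SM22), an actin-binding protein of smooth muscle (ENSMUSG00000032085, chromosome 9), had 5, 7 and 10 counts in TKO-2i and 298, 314 and 295 counts in TKO-serum, or 0.112, 0.159 and 0.235 CPM in TKO-2i and 7.73, 5.90 and 6.42 CPM in TKO-serum. The lowest TKO-serum value was far above the highest TKO-2i value, and the log2 fold change was -5.29 ± 0.22 (adjusted p = 3.3e-07). Cnn1, the gene of the smooth muscle calponin (ENSMUSG00000001349, chromosome 9), had 2, 3 and 2 counts in TKO-2i and 80, 143 and 126 counts in TKO-serum. TKO-2i replicates were alike near 0 and TKO-serum replicates were all well above them, with a log2 fold change of -5.49 ± 0.28 (adjusted p = 8.7e-07). Cnn2, a calponin of non-muscle cells (ENSMUSG00000004665, chromosome 10), was at 11.8, 10.3 and 11.6 CPM in TKO-2i and 66.5, 60.1 and 64.1 CPM in TKO-serum. The libraries of each condition lay close together, 5.64-fold apart between conditions, with a log2 fold change of -2.50 ± 0.07 (adjusted p = 6e-08).

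The paralogs of these genes had other values. Cnn3, encoding the acidic calponin, was at 297, 281 and 293 CPM in TKO-2i and 310.3, 309 and 299 CPM in TKO-serum and did not pass the test, with a log2 fold change of -0.08 ± 0.05 (adjusted p = 0.21). Its TKO-2i values were all below its TKO-serum values by a small margin. Limma on log2(TPM + 1) placed Cnn3 past the threshold (log2 fold change -0.17, adjusted p = 0.027), within a range of 0.027 to 0.44 over the alternatives. In TPM, Cnn3 was the most abundant calponin, at 196 ± 8.38 TPM in TKO-2i and 220.0 ± 9.36 TPM in TKO-serum, against 5.51 ± 0.0818 TPM in TKO-2i and 35.3 ± 1.97 TPM in TKO-serum for Cnn2 and 0.0553 ± 0.0167 TPM in TKO-2i and 2.12 ± 0.784 TPM in TKO-serum for Cnn1 (SD, n = 3). Tagln2, a transgelin of non-muscle cells, was at 176, 156 and 169.8 CPM in TKO-2i and 128, 122 and 122 CPM in TKO-serum. Here every TKO-2i library was above every TKO-serum library, with a log2 fold change of 0.43 ± 0.06 (adjusted p = 0.00033), opposite in direction to Tagln. The coding sequences of Tagln and Tagln2 were 69.2% identical and those of Cnn1 and Cnn2 65.2%.

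The alpha-actinins, which cross-link actin filaments, also split. Actn1 was at 364, 338 and 353 CPM in TKO-2i and 319, 313 and 317 CPM in TKO-serum, higher in TKO-2i with no overlap in CPM (log2 fold change 0.15 ± 0.05, adjusted p = 0.023). The call for Actn1 held in 6 of 15 alternatives: it was lost without TKO-2i replicate 1 (adjusted p = 0.13) or replicate 3 (0.11) and without TKO-serum replicate 1 (0.066), replicate 2 (0.075) or replicate 3 (0.078), in a range from 0.003 to 0.51. In TPM the conditions overlapped for Actn1, and limma on either TPM scale, the fit without a filter and that with at least 10 counts in every library did not make the call. Actn4, its paralog, was lower in TKO-2i, at 149.9 ± 11.2 TPM in TKO-2i and 230.1 ± 8.10 TPM in TKO-serum (SD, n = 3; log2 fold change -0.56 ± 0.05, adjusted p = 3.5e-05). Their coding sequences were 78.8% identical. Flna, the gene of filamin A, which joins filaments into networks and ties them to membrane receptors, was lower in TKO-2i at a log2 fold change of -0.61 ± 0.05 (adjusted p = 8.4e-06). The 3 tropomyosin genes among the members, whose products lie along the actin filament, were lower in TKO-2i and differed in size: -0.34 ± 0.05 for Tpm1, -1.66 ± 0.11 for Tpm2 and -0.19 ± 0.05 for Tpm4 on the log2 scale (adjusted p = 0.00037, 3.9e-06 and 0.0087). Tpm2 was also the scarcest of them, at 3.02 ± 0.256 TPM in TKO-2i and 10.2 ± 1.00 TPM in TKO-serum (SD, n = 3). Tpm3, a tropomyosin gene outside the members, was higher in TKO-2i (0.40 ± 0.06, adjusted p = 0.00053) and stood at 361 ± 6.12 TPM in TKO-2i and 294 ± 4.02 TPM in TKO-serum (SD, n = 3).

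Both myosin genes were lower in TKO-2i, against 30.6% of all tested genes, by very different amounts. Myl9, a regulatory light chain of smooth muscle and non-muscle myosin II (ENSMUSG00000067818, chromosome 2), had 5, 5 and 5 counts in TKO-2i and 361, 481 and 431 counts in TKO-serum, or 0.112, 0.114 and 0.117 CPM in TKO-2i and 9.36, 9.04 and 9.38 CPM in TKO-serum. The 3 libraries of each condition were nearly equal and the conditions stood 79.2-fold apart, with a log2 fold change of -6.31 ± 0.14 (adjusted p = 1.8e-08). Myh9, the heavy chain of non-muscle myosin IIA, was at 416, 415 and 405 CPM in TKO-2i and 500.5, 480.4 and 504 CPM in TKO-serum. It was lower in every TKO-2i library than in any TKO-serum library, with a log2 fold change of -0.26 ± 0.05 (adjusted p = 0.001).

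**Figure D2:**
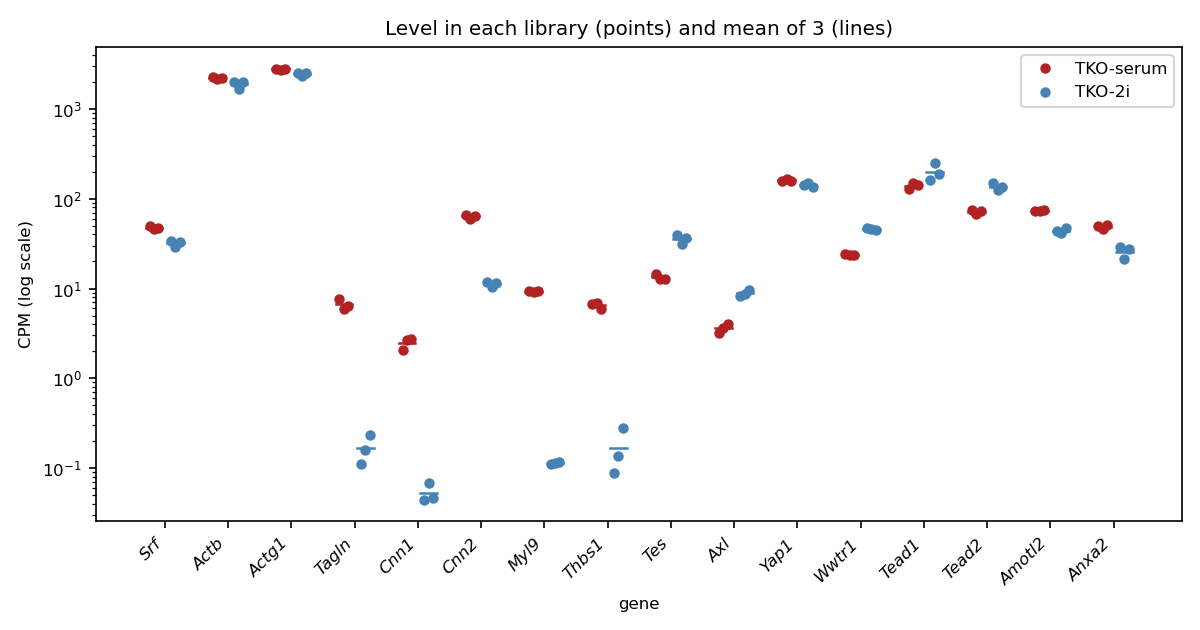
CPM (vertical axis, log scale) of selected members (horizontal axis) in each of the 3 TKO-2i (blue) and 3 TKO-serum (red) libraries, with points for libraries and lines for their mean. Myl9 sits from 0.112 to 0.117 CPM in TKO-2i and from 9.04 to 9.38 CPM in TKO-serum, whereas for Wwtr1 the TKO-2i points lie above the TKO-serum points.

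Of the 5 genes of focal adhesion and LIM-domain proteins, 3 were lower and 2 higher in TKO-2i, against 30.6% lower and 31.9% higher of all genes. Tes, encoding the LIM protein testin of focal adhesions, was at 39.1, 31.7 and 36.6 CPM in TKO-2i and 14.6, 12.8 and 12.6 CPM in TKO-serum. TKO-2i was the higher condition in every library, 2.68-fold, with a log2 fold change of 1.42 ± 0.09 (adjusted p = 3.8e-06). Tes lies on chromosome 6, where the median log2 fold change of all tested genes was 0.41. Zyx, the gene of the focal adhesion protein zyxin and also on chromosome 6, was at 13.1, 11.0 and 12.6 CPM in TKO-2i and 18.4, 15.1 and 16.8 CPM in TKO-serum, with the TKO-2i values below those of TKO-serum (log2 fold change -0.45 ± 0.10, adjusted p = 0.0033). Pdlim7, a PDZ and LIM domain gene whose product binds alpha-actinin and tropomyosin, was at 21.5, 18.2 and 18.7 CPM in TKO-2i and 36.5, 31.6 and 38.1 CPM in TKO-serum. The conditions were well separated, with a log2 fold change of -0.86 ± 0.09 (adjusted p = 6e-05).

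Vcl, encoding vinculin, which links integrin adhesions to actin, was at 117, 122 and 113 CPM in TKO-2i and 104, 106 and 102 CPM in TKO-serum, slightly higher in TKO-2i without overlap in CPM (log2 fold change 0.17 ± 0.05, adjusted p = 0.018). The Vcl call held in 9 of 15 alternatives: it was lost without TKO-2i replicate 1 (adjusted p = 0.055), TKO-serum replicate 1 (0.057) or TKO-serum replicate 3 (0.07), with no filter on low counts (0.062) and in limma on either TPM scale (log2 fold change 0.10, adjusted p = 0.31), in a range of 0.0037 to 0.31. In TPM the conditions overlapped, with Vcl at 29.0, 34.0 and 28.9 TPM in TKO-2i and 27.8, 29.4 and 28.2 TPM in TKO-serum. Fhl2, a LIM-only co-factor, was scarce, with 3, 11 and 8 counts in TKO-2i and 25, 25 and 18 counts in TKO-serum, and lower in TKO-2i with a wide error (log2 fold change -1.56 ± 0.42, adjusted p = 0.011). All TKO-2i counts of Fhl2 were below all TKO-serum counts.

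Of the 7 Hippo pathway members, 4 were higher in TKO-2i, 2 were lower and 1 did not pass the test (median log2 fold change 0.51), where 31.9% of all genes were higher and 30.6% lower. Limma on log2(TPM + 1) made the higher call for Wwtr1 and Tead2 only. Yap1, encoding YAP (ENSMUSG00000053110, chromosome 9), was at 143, 151 and 137 CPM in TKO-2i and 158, 165 and 159 CPM in TKO-serum. Its values were slightly lower in TKO-2i with no overlap (log2 fold change -0.16 ± 0.06, adjusted p = 0.035). The call was lost without TKO-2i replicate 1 (adjusted p = 0.057) or replicate 3 (0.14) and without TKO-serum replicate 1 (0.08), replicate 2 (0.1) or replicate 3 (0.081), in a range from 0.0058 to 0.14. Wwtr1, encoding the YAP paralog TAZ (ENSMUSG00000027803, chromosome 3), was at 46.9, 46.3 and 44.5 CPM in TKO-2i and 24.2, 23.4 and 23.5 CPM in TKO-serum. Wwtr1 was higher in every TKO-2i library, by 1.94-fold, with a log2 fold change of 0.96 ± 0.05 (adjusted p = 9.7e-07). In TPM, Yap1 exceeded Wwtr1 in both conditions, at 51.9 ± 5.35 TPM in TKO-2i and 62.6 ± 3.88 TPM in TKO-serum for Yap1 and 17.8 ± 1.29 TPM in TKO-2i and 9.88 ± 0.192 TPM in TKO-serum for Wwtr1 (SD, n = 3).

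The TEAD genes encode the DNA-binding partners of YAP and TAZ. Tead2, the TEAD factor known for its early embryonic expression, was at 148, 125 and 136 CPM in TKO-2i and 74.6, 67.7 and 72.2 CPM in TKO-serum. All TKO-2i libraries were the higher ones, with a log2 fold change of 0.93 ± 0.07 (adjusted p = 1.2e-05). Tead1 was at 162, 249 and 189 CPM in TKO-2i and 128, 149 and 143 CPM in TKO-serum, with TKO-2i replicate 2 far above its fellow replicates; it was singled out after its values were seen. Its log2 fold change was 0.51 ± 0.14 (adjusted p = 0.013), and 0.33 (adjusted p = 0.0036) without TKO-2i replicate 2. Limma on log2(TPM + 1) gave 0.33 and on log2(TPM + 0.1) 0.34, with an adjusted p of 0.14 in both, in a range of 0.00026 to 0.14 over the alternatives. TKO-2i replicate 2 was also the library with the strongest relation to transcript length. Its median difference from the mean of the other TKO-2i libraries on the log2 scale was -0.114 in the 4544 shortest tested genes and 0.111 in the 4544 longest. The part of transcript length in the Tead1 value was not tested.

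Lats2, a kinase that phosphorylates YAP and TAZ, was at 5.82, 5.82 and 6.50 CPM in TKO-2i and 5.47, 5.79 and 5.83 CPM in TKO-serum. The conditions overlapped, and the log2 fold change was 0.08 ± 0.09 (adjusted p = 0.43). The annotation places the protein-coding gene Gm49361 on the same strand over Lats2, with 22 counts in TKO-serum replicate 1, 4 in TKO-2i replicate 3 and 0 in the other libraries. Angiomotin family proteins bind YAP and tight junction actin, and their genes Amotl1 and Amotl2 went in opposite directions. Amotl2, which is also a YAP target, was at 44.0, 41.6 and 46.9 CPM in TKO-2i and 73.6, 72.8 and 74.4 CPM in TKO-serum, lower in TKO-2i with close replicates (log2 fold change -0.74 ± 0.06, adjusted p = 7.9e-06). Amotl1 was higher in TKO-2i, at a log2 fold change of 0.58 ± 0.09 (adjusted p = 0.00071), a call that limma on log2(TPM + 1) did not make (adjusted p = 0.052, the highest of a range that starts at 4.7e-07).

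Of the 4 members that encode a nuclear target, a receptor or secreted proteins, 2 were lower, 1 was higher and 1 did not pass the test. Among all tested genes, 30.6% were lower and 31.9% higher. Ankrd1, a classical YAP target that encodes a nuclear ankyrin-repeat protein (ENSMUSG00000024803, chromosome 19), had 0, 0 and 0 counts in TKO-2i and 19, 17 and 13 counts in TKO-serum; it was singled out after its values were seen. No TKO-2i library had a count, and against a floor of 3 counts over the TKO-2i group the gene was at least 15.6-fold lower in TKO-2i (adjusted p = 0.00049). Thbs1, encoding the matrix glycoprotein thrombospondin 1 (ENSMUSG00000040152, chromosome 2), had 4, 6 and 12 counts in TKO-2i and 261, 364 and 272 counts in TKO-serum. TKO-2i values were near 0 and TKO-serum values all far higher, with a log2 fold change of -5.26 ± 0.24 (adjusted p = 5.4e-07). Axl, a receptor tyrosine kinase gene and YAP target, was at 8.17, 8.66 and 9.69 CPM in TKO-2i and 3.22, 3.61 and 3.98 CPM in TKO-serum. In contrast to Ankrd1 and Thbs1, Axl was higher in every TKO-2i library, by 2.45-fold (log2 fold change 1.29 ± 0.11, adjusted p = 1.6e-05). Tgfb1, the gene of the cytokine TGF-beta 1, was at 8.61, 8.59 and 9.10 CPM in TKO-2i and 8.43, 7.31 and 8.62 CPM in TKO-serum. Its conditions overlapped and it did not pass the test (log2 fold change 0.11 ± 0.09, adjusted p = 0.29).

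Among the annexins and the genes of caveolae and the nuclear lamina, 3 of 4 tested members were lower in TKO-2i and 1 did not pass the test. The shares over all tested genes were 30.6% lower and 31.9% higher. Anxa2, a calcium-dependent membrane-binding protein that associates with actin, was at 28.7, 21.6 and 27.2 CPM in TKO-2i and 49.2, 46.1 and 51.5 CPM in TKO-serum. TKO-serum libraries were clearly higher, with a log2 fold change of -0.92 ± 0.10 (adjusted p = 7.8e-05). Anxa3, another annexin, was scarcer, at 0.826, 0.659 and 1.01 CPM in TKO-2i and 2.70, 2.73 and 2.24 CPM in TKO-serum, with a log2 fold change of -1.62 ± 0.18 (adjusted p = 9.1e-05). Anxa1 was at 9.10, 7.07 and 8.23 CPM in TKO-2i and 9.67, 9.42 and 10.1 CPM in TKO-serum. Its TKO-2i values were below its TKO-serum values, with a log2 fold change of -0.26 ± 0.10 that did not pass the test (adjusted p = 0.053). It passed in 8 of 15 alternatives, among them the fit without TKO-2i replicate 1 (adjusted p = 0.013), in a range of 0.013 to 0.15. Lmna, encoding lamins A and C of the nuclear lamina, was at 37.4, 32.1 and 39.0 CPM in TKO-2i and 51.2, 44.8 and 47.0 CPM in TKO-serum, with no overlap (log2 fold change -0.40 ± 0.08, adjusted p = 0.003). Cav1, encoding the caveolar coat protein caveolin 1, had 0, 0 and 0 counts in TKO-2i and 2, 10 and 2 counts in TKO-serum and was not tested. It was at least 4.45-fold lower in TKO-2i against 3 counts over the group, a bound that rests mostly on TKO-serum replicate 2.

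Reads of a member and of a gene on the other strand can be divided wrongly if the quantification ignored strand, which is not given in the sources used here. An annotated gene on the other strand overlapped 20 members. For 6 of these such a gene had 10% or more of the member's counts over all libraries: Tagln with Pcsk7 and the antisense RNA gene Gm48529, Vcl with Ap3m1, Zyx with Epha1, Tead2 with Cd37, Fhl2 with the pseudogene Gm8210, and Cav1 with Gm15581. Cd37 had 753, 821 and 614 counts in TKO-2i and 268, 379 and 377 counts in TKO-serum, and Epha1 had 192, 212 and 168 counts in TKO-2i and 455, 611 and 539 counts in TKO-serum, so that without overlap Cd37 was higher in TKO-2i, as Tead2 was, and Epha1 lower, as Zyx was. Ap3m1 had 2788, 2964 and 2561 counts in TKO-2i and 3256, 4978 and 3935 counts in TKO-serum, lower in TKO-2i where Vcl was higher. Pcsk7 had 704, 688 and 736 counts in TKO-2i and 604, 772 and 722 counts in TKO-serum, and Gm48529 had 20, 36 and 42 counts in TKO-2i and 19, 35 and 27 counts in TKO-serum, both with overlapping conditions. Gm8210 had 15534, 11582 and 13551 counts in TKO-2i and 12823, 14955 and 13926 counts in TKO-serum, far more than Fhl2. The part of wrongly divided reads in the values of these members was not tested.

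Transcript composition was examined for the 26 members with at least 5 TPM in both conditions. In none of them did the most abundant transcript change its share of the gene's TPM by 20 percentage points or more. For Yap1, singled out after its values were seen, the share of transcript Yap1-202 was 58.5%, 55.5% and 58.8% in TKO-2i and 68.7%, 69.4% and 69.9% in TKO-serum. The shares did not overlap, while Yap1-201 took 38.2% on average in TKO-2i and 25.6% in TKO-serum.

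Other genes of these pathways were listed by function; for each list's counts, the shares over all tested genes were 30.6% lower and 31.9% higher in TKO-2i. Of 24 further Hippo pathway genes 23 were tested, and 9 were lower, 11 higher and 3 not past the threshold in TKO-2i (median log2 fold change 0.15). Limma on either TPM scale counted 7 as higher. At a mean of 1 CPM or more, the largest falls were in Amot, the founding angiomotin (-2.56 ± 0.10), and the LIM protein gene Ajuba (-1.82 ± 0.05), and the largest rises in Tead4, the TEAD factor of trophectoderm (1.79 ± 0.06), and Frmd6 (1.22 ± 0.08). Tead4 lies on chromosome 6, where the median over all tested genes was 0.41. Vgll1, a TEAD co-factor gene with a mean below 1 CPM, had 1, 0 and 0 counts in TKO-2i and 24, 49 and 31 counts in TKO-serum, a ratio of TKO-serum to TKO-2i of 99.3 (exact 95% interval 17.4 to 3960, counting error only; adjusted p = 3.1e-05). Of 19 further YAP target genes, among them Ptpn14, which is also counted with the Hippo genes, 16 were tested, with 10 lower, 5 higher and 1 not past the threshold (median -0.56). The coagulation initiator gene F3 (-2.36 ± 0.17) and the matricellular gene Ccn1 (-2.25 ± 0.11) fell most, whereas the ecto-nucleotidase gene Nt5e (3.64 ± 0.10) and the membrane repair gene Myof (1.52 ± 0.07) rose most.

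Against the same shares over all genes (30.6% lower, 31.9% higher), among 32 further cytoskeletal genes linked to SRF, Myl12b has 2 gene identifiers and was left out, and of the other 31, all tested, 14 were lower, 10 higher and 7 not past the threshold (median -0.09). At a mean of 1 CPM or more, the filamin C gene Flnc (-3.16 ± 0.10) and Enah, an actin polymerase gene (-1.66 ± 0.07), had the largest falls, and Csrp1 (1.68 ± 0.08) and Fhl3 (1.18 ± 0.09), both LIM protein genes, the largest rises; below that level Filip1l (-2.38 ± 0.39) fell more than Enah. Of 14 further focal adhesion genes, 6 were lower, 3 higher and 5 not past the threshold (median -0.06). Bcar1 (-1.56 ± 0.07) and Parva (-1.02 ± 0.10) fell most and the kinase gene Src (1.19 ± 0.05) and Ilk (0.42 ± 0.09) rose most.

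Markers of cell types that use these genes, and of the stem cells themselves, were counted beside the members and, as before, against 30.6% lower and 31.9% higher of all tested genes. The fibroblast and feeder list summed to 8.62, 9.49 and 7.99 TPM in TKO-2i and 13.1, 14.5 and 13.7 TPM in TKO-serum, with Thy1 the most abundant in TKO-2i and Twist1 in TKO-serum, at 3.40 ± 0.327 TPM in TKO-2i and 4.57 ± 0.139 TPM in TKO-serum for Thy1 and 2.20 ± 0.343 TPM in TKO-2i and 6.75 ± 0.439 TPM in TKO-serum for Twist1 (SD, n = 3). Of its 12 genes 6 were tested, 3 lower, 1 higher and 2 not past the threshold. Col3a1, Postn, Lum, Dcn, Twist2 and Prrx1 were near 0 in both conditions, with at most 14 counts in any library. Among them Dcn had 0, 1 and 0 counts in TKO-2i and 11, 14 and 8 counts in TKO-serum, a ratio of TKO-serum to TKO-2i of 31.5 (exact 95% interval 5.27 to 1280, counting error only), and for Col3a1, with 1 count in TKO-2i and 10 in TKO-serum, the ratio was 9.54 (1.36 to 414). The collagen gene Col1a2 (-1.55 ± 0.25), Twist1 (-1.46 ± 0.12) and Thy1 (-0.42 ± 0.09) were lower in TKO-2i and Pdgfrb (1.62 ± 0.14) higher, and the collagen gene Col1a1 did not pass the test (-0.05 ± 0.15). The smooth and cardiac muscle list summed to 20.2, 23.2 and 18.5 TPM in TKO-2i and 26.2, 28.4 and 29.0 TPM in TKO-serum, with Tnni3 the most abundant at 11.3 ± 2.22 TPM in TKO-2i and 9.07 ± 0.703 TPM in TKO-serum (SD, n = 3). All 11 genes were tested, 7 lower, 2 higher and 2 not past the threshold. At a mean of 1 CPM or more Synpo2 (-3.64 ± 0.23) and Myh6 (-2.77 ± 0.13) had the largest falls, and Tnnt2 (1.44 ± 0.17) and Tnni3 (0.59 ± 0.10) were higher. The Tnni3 call was not made by limma on log2(TPM + 1) or log2(TPM + 0.1) (adjusted p = 0.13 and 0.12, in a range from 0.00015 to 0.13). Actc1, the cardiac actin gene, had 0, 0 and 0 counts in TKO-2i and 31, 39 and 18 counts in TKO-serum, at least 28.0-fold lower in TKO-2i against 3 counts over the group. The skeletal actin gene Acta1 had 5, 6 and 7 counts in TKO-2i and 62, 91 and 70 counts in TKO-serum (-3.53 ± 0.22, adjusted p = 3e-06). Myh11, the smooth muscle myosin heavy chain gene that defines mature smooth muscle, stood near 0 at 0.0381 ± 0.0137 TPM in TKO-2i and 0.0988 ± 0.0169 TPM in TKO-serum (SD, n = 3). At this low level Myh11 was lower in TKO-2i (log2 fold change -1.30 ± 0.29, adjusted p = 0.0039).

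The extraembryonic endoderm list summed to 173, 178 and 170.3 TPM in TKO-2i and 196, 213 and 200.2 TPM in TKO-serum, most of it Sparc at 166 ± 3.16 TPM in TKO-2i and 162 ± 7.45 TPM in TKO-serum (SD, n = 3). Most of the difference in the sum came from the collagen gene Col4a1, at 2.80 ± 0.351 TPM in TKO-2i and 23.4 ± 0.933 TPM in TKO-serum (-2.95 ± 0.06, adjusted p = 1.6e-08). Of its 11 genes 9 were tested, 7 lower and 2 not past the threshold, with Dab2 (-4.35 ± 0.11) and Sox7 (-4.05 ± 0.22) lowest. Without TKO-2i replicate 2, 1 gene of this list was called higher. Ttr had 0 counts in TKO-2i and 6 in TKO-serum, and Afp was not tested. The defining stem cell genes summed to 5583, 5119 and 5069 TPM in TKO-2i and 6254, 5916 and 6002 TPM in TKO-serum, led by Dppa5a at 2274 ± 234 TPM in TKO-2i and 2659 ± 213 TPM in TKO-serum (SD, n = 3). Of these 8 genes, 3 were lower, 2 higher and 3 not past the threshold, with Nanog (0.60 ± 0.06) and Esrrb (0.33 ± 0.04) higher and Sox2 (-0.41 ± 0.05) and Zfp42 (-0.40 ± 0.06) lower in TKO-2i. Nanog lies on chromosome 6, where the median over all tested genes was 0.41. The stem cell identity in the labels thus had its markers at high TPM in all 6 libraries, and the summed TPM of the fibroblast, muscle, endoderm and stem cell lists was higher in every TKO-serum library, as were Acta2, Tagln, Cnn1 and Myl9. The part of other cell types in the members' differences was not tested.

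Promoter windows from 250 bases before to 50 bases after the transcription start were taken from RefSeq (GRCm38.p6) and matched by symbol for 33 members, with none for Actg2, Actb, Tagln, Thbs1, Anxa3 and Tead1. A CArG box, the SRF motif (CC, then 6 bases that are A or T, then GG), was searched on both strands and occurred in the windows of 6 members (18.2%), against 1.63% of all 32851 windows and 1.81% of the 27025 genes with a window. Of these 6, the genes Srf, Actg1, Cnn2, Myl9 and Fhl2 were lower in TKO-2i and Vcl was higher. Among the 27 members whose window held none, 15 were lower, 7 higher, 4 not past the threshold and 1 not tested. The search took exact matches only, so these 27 can hold near matches. The window of Acta2, 1 of them, holds ccctatatgg and ccttgtttgg, each with 1 base outside the pattern. Near matches were not counted for members or for all windows. For comparison, 30.6% of all tested genes were lower and 31.9% higher. The TEAD motif GGAATG, on both strands, occurred in the windows of 13 members (39.4%), against 14.7% of all windows and 16.6% of genes. Of these 13, 7 were lower, 4 higher and 2 not past the threshold. Of the 20 without it 13 were lower, 4 higher, 2 not past the threshold and 1 not tested. Both counts stand beside the same 30.6% lower and 31.9% higher over all genes. A match is a description of the letters in a window only.

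The windows of 5 members with a CArG box are shown because they let the motif be read beside genes of small (Actg1), intermediate (Srf, Cnn2) and very large (Myl9) falls and 1 rise (Vcl) in TKO-2i; capitals mark the motif. The box began 82 and 62 bases upstream of the start in Srf, 90 in Actg1, 56 in Cnn2, 161 in Myl9 and 227 in Vcl. The windows lie at chr17:46556113-46556412 (minus strand) for Srf, chr11:120348446-120348745 (minus strand) for Actg1, chr10:79988350-79988649 (plus strand) for Cnn2, chr2:156775214-156775513 (plus strand) for Myl9 and chr14:20929148-20929447 (plus strand) for Vcl, and are printed 5′ to 3′ on the strand of the gene.
Srf: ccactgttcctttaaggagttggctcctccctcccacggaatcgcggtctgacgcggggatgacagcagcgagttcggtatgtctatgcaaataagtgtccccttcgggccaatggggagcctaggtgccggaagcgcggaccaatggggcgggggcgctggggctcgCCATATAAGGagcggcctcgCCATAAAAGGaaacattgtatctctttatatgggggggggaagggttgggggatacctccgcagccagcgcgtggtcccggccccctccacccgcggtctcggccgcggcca
Actg1: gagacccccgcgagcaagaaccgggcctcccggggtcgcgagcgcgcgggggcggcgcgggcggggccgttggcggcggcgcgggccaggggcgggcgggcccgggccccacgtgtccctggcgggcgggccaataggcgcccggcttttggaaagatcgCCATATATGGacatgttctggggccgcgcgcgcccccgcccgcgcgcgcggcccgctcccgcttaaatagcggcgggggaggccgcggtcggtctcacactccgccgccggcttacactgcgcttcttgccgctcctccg
Cnn2: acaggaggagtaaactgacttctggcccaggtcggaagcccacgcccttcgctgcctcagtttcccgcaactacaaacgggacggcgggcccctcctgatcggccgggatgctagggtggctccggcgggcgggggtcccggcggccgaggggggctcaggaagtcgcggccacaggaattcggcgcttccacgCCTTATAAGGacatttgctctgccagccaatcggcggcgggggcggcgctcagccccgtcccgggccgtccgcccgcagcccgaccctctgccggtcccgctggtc
Myl9: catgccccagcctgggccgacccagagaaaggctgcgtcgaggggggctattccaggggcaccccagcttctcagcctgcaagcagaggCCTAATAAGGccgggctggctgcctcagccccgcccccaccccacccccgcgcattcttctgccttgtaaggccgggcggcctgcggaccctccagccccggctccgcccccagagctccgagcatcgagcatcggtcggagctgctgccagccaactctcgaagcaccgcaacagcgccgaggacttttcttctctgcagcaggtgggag
Vcl: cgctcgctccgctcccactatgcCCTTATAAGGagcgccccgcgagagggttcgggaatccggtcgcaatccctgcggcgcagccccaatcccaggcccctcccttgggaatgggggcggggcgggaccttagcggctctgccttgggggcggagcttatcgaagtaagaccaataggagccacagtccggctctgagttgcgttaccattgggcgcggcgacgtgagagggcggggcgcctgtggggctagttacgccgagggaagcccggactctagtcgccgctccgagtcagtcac

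**Figure D3:**
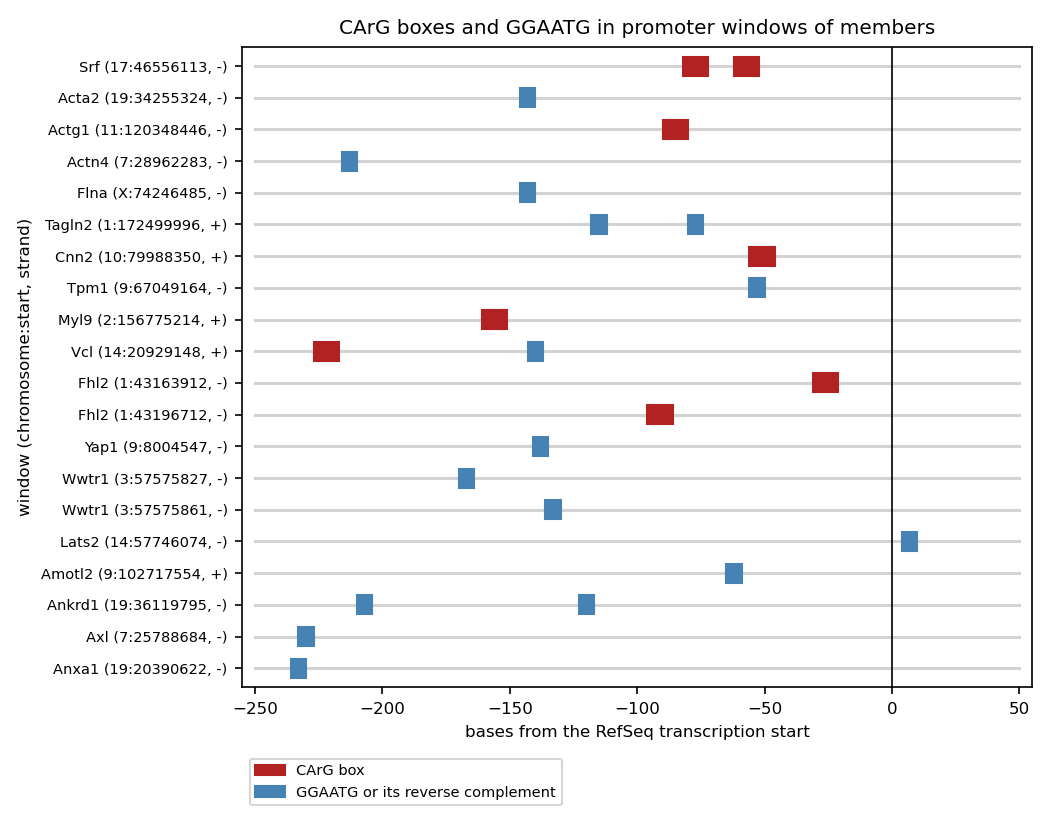
Positions of CArG boxes (red) and of GGAATG or its reverse complement (blue) in each member's promoter window that holds either (vertical axis, with chromosome, start and strand), in bases from the transcription start (horizontal axis). The CArG boxes of Srf lie 82 and 62 bases upstream, Fhl2 has 1 box in each of its 2 windows, and Vcl holds both motifs.

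The windows of 3 YAP-linked members are shown for the TEAD motif, with GGAATG or its reverse complement in capitals, because Ankrd1 and Amotl2 fell and Axl rose in TKO-2i while all 3 hold the same letters. The motif began 210 and 123 bases upstream of the start in Ankrd1, 65 in Amotl2 and 233 in Axl. The windows lie at chr19:36119795-36120094 (minus strand) for Ankrd1, chr9:102717554-102717853 (plus strand) for Amotl2 and chr7:25788684-25788983 (minus strand) for Axl.
Ankrd1: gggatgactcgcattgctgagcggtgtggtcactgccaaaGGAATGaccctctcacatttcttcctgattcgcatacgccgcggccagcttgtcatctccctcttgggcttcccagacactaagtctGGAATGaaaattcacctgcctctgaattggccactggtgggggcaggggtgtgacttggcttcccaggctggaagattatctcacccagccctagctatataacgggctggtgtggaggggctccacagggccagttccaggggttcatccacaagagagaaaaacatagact
Amotl2: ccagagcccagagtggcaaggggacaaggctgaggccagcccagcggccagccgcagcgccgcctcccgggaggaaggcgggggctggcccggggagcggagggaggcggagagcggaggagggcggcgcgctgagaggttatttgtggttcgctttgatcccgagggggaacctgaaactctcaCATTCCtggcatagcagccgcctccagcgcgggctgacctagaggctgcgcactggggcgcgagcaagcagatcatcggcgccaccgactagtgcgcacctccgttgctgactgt
Axl: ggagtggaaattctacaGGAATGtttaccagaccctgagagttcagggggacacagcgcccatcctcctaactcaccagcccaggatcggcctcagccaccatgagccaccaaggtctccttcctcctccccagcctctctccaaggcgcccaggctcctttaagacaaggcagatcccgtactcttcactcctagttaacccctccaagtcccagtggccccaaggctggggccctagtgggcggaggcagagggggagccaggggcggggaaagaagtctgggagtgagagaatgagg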

How the data were processed

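Poly(A)-selected stranded RNA libraries of 3 TKO-2i and 3 TKO-serum cultures were sequenced by the authors. Each deposited file gave, per transcript, an estimated count, a TPM value and an effective length, in the column layout that salmon writes; the methods describe Tophat alignment to mm10 and RPKM scores, which are not the deposited values, and the quantifier of these files, its version and its use of strand are not given in the sources used here. Libraries were sequenced in separate pools and flow cells, and which library was in which is not given, so batch could not be examined. The estimated counts deposited by the authors were not whole for 85.1% to 85.8% of the nonzero values. The authors' quantification scaled TPM by effective length and by library total. The other deposited measure, effective length in bases, was used for length-scaled counts.

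Of 136288 transcripts, 136100 (99.862%) matched GENCODE M21 (GRCm38), and the others held 0.0473% to 0.0643% of the counts. Estimated counts were summed per gene, rounded, and filtered with filterByExpr. edgeR 4.0.16 in R 4.3.3 fitted condition with TMM factors (0.970 to 1.03), its quasi-likelihood test and Benjamini-Hochberg adjustment over 18177 genes, at an adjusted p of 0.05; limma 3.58.1 and DESeq2 1.42.0 served for alternatives. CPM uses the TMM-scaled totals. Tables were handled with Python 3.11.15, pandas 2.3.3 and scipy 1.17.1. The fit was also run on simulated counts with 200 changed genes among 18177. It recovered 78 of 100 changes of 2-fold and 91 of 100 of 4-fold, with 14 false calls. In the real data 62.5% of genes were called, so that run does not measure the error rate here. Across genes, the lowest Pearson r between libraries of a condition was 0.988 and the highest between conditions 0.938. Ratios with an exact interval and bounds from a floor (3 counts over a group) are on the normalized counts. Intervals and floors cover counting error only. Standard errors are the absolute log2 fold change over the square root of F.

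Values in every library are given for Srf, Yap1 and Wwtr1, for the 3 largest called changes of each role group at a mean of 1 CPM or more, for members against their role group's direction and for tested members not past the threshold; of each other list in the report, the 2 largest rises and falls at that level are named. Other members with such values, the genes named for low counts or under 1 CPM, Tpm3, Col1a1, Col4a1 and the antisense genes were chosen after their values were seen. The members and lists were chosen with earlier results of these data known. The alternatives were another test or normalization, other filters, length-scaled TPM counts, limma on log2(TPM + 1) or log2(TPM + 0.1), protein-coding genes only, a replicate block, and each library left out. Coding sequences were aligned in pairs, from GENCODE M21 annotation on the GRCm38 genome, because no protein table was used here.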

Additional observations from a re-analysis of the deposited data

How the results depend on the processing

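Of the 37 tested members, 29 kept their side of the threshold under each of the 15 alternatives that gave them a value, and 8 (Actb, Actn1, Cnn3, Vcl, Yap1, Tead1, Amotl1 and Anxa1) changed side under at least 1. No called value changed sign; Lats2 (log2 fold change -0.30 to 0.12) and Tgfb1 (-0.08 to 0.16), not past the threshold in any fit, took either sign. With 1 library left out at a time, 22 to 24 members were lower and 7 to 9 higher in TKO-2i, 10 to 11 were lower by at least 2-fold, and the member median was between -0.36 and -0.31. Over all genes, these fits called 4984 to 6240 lower and 5134 to 6328 higher, against 5557 and 5804 in the main fit. No 2-fold count over all genes is given for them. Limma on log2(TPM + 1) called 5 members higher, against 9, and over all genes 4209 higher, against 5804 (41.9% of calls, against 51.1%); the cause was not tested. A minimum of 10 counts in every library left 30 members in the fit, and 3 instead of 10 were lower by at least 2-fold, since it removed Acta2, Tagln, Cnn1, Myl9, Fhl2, Ankrd1 and Thbs1, which have no value under it. Called genes numbered 9804 to 12568 over the alternatives. With the replicate number as a block (replicate block), 12539 genes were called, 6095 of them lower and 6444 higher. In this fit 25 members were lower, 9 higher and 10 lower by at least 2-fold, and the member median was -0.34. Whether equal numbers mark a pairing could not be settled. Deviations from the condition means correlated at 0.242, 0.329 and 0.014 for replicates 1, 2 and 3. For TKO-2i replicate 1 the other TKO-serum replicates gave -0.237 and 0.001, and for TKO-2i replicate 2 they gave -0.326 and -0.0119. Equal numbers were thus the best match for TKO-2i replicates 1 and 2, while TKO-2i replicate 3 correlated best with TKO-serum replicate 1 (0.123). Among the marker lists, the replicate block gave 5 stem cell genes lower against 3 and 1 endoderm gene higher against 0, and 4 muscle genes against 7 were lower with at least 10 counts in every library. Depth limits Acta2, Actg2, Ankrd1 and Cav1, whose TKO-2i counts were 0 or 1 in each library.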
